A study of Mus musculus with 16 samples.

Results

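Ttr, Kl, Folr1, Clic6, Kcne2, Slc4a5, Cldn2, Aqp1 and Otx2 are used as markers of the choroid plexus, and their levels were followed in total RNA from mouse striatum. A probe set was taken for a gene where that gene was the only symbol given to it in the platform's probe-to-gene table. All 9 genes were found, on 13 of the 45037 probe sets tested, which name 17097 genes between them. The arrays were Affymetrix mouse expression arrays of a perfect-match design, and a level is the deposited log2 value of a probe set. Levels of different probe sets are not compared with each other, because each set of probes has its own affinity. No filter on low levels was applied, so all 13 probe sets were tested. Those of members other than Ttr had low mean levels, 3.39 to 5.34, where the array medians were 5.66 to 5.71. Background signal was not analysed, so whether these transcripts were detected was not tested, and a small range need not mean steady expression.

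The mice were males, 7 to 8 weeks of age, of the A/JOlaHsd and DBA/2JRccHsd inbred lines, called A/J and DBA/2J here. There were 4 groups of 4 arrays: A/J given risperidone, A/J controls, DBA/2J given risperidone and DBA/2J controls. Risperidone, an atypical antipsychotic and antagonist of dopamine and serotonin receptors, was injected intraperitoneally at 1 mg/kg daily for 3 days. The sample labels call the controls untreated, whereas the protocol text names saline. The samples are labelled biological replicates, so each array is taken as 1 mouse, and the number of arrays limits the precision of every value below.

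The choroid plexus is the secretory epithelium inside the brain ventricles that makes most of the cerebrospinal fluid. The lateral ventricle borders the striatum, and its choroid plexus is not part of the striatum. The epithelium secretes the thyroid hormone carrier transthyretin (Ttr), moves ions and water through transporters and channels on its 2 faces, and holds its cells together with tight junctions. In bulk RNA, fewer cells of a type and less RNA per cell cannot be told apart.

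Some arrays stood apart before any member was examined. The DBA/2J share of an array is the median position of its strain marker probe sets between the A/J controls, at 0%, and the DBA/2J controls, at 100%. It was 27.9%, 36.2% and 39.1% in A/J risperidone replicates 1, 2 and 4, but 0.584% in A/J risperidone replicate 3. The other A/J arrays lay between -2.30% and 0.993%, and the DBA/2J arrays between 87.6% and 103.249%, with the lowest in DBA/2J risperidone replicate 1. Array medians were nearly equal, from 5.66 to 5.71. Among markers of striatal projection neurons, Ppp1r1b, the dopamine signalling protein DARPP-32, read 5.99 to 7.57 in the 16 arrays and Penk, proenkephalin, 6.13 to 7.98. The dopamine receptor genes read lower, Drd1 at 5.85 to 6.51 and Drd2 at 3.62 to 4.90. No detection limit was set, so their presence was not tested.

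Promoter sequence is shown for Cldn2 and Kl, members that followed Ttr from mouse to mouse (below), and for Ecrg4. Of the genes outside the members, Ecrg4 followed the Ttr probe set of higher mean most closely. Each run is the 250 bases before the RefSeq transcription start, 5′ to 3′ in the gene's direction, in build GRCm38.p6. Capitals mark a TATA-box sequence (TATAAA) or a GC-box sequence (GGGCGG, or CCGCCC where it lies on the other strand). Cldn2 is at chrX:139800558-139800807, Kl at chr5:150952357-150952606 and Ecrg4 at chr1:43730352-43730601, all on the plus strand.
Cldn2: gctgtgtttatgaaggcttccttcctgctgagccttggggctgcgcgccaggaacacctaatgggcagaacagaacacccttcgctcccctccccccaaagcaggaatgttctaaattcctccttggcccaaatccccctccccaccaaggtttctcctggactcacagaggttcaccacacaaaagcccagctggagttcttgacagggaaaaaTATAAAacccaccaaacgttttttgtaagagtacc
Kl: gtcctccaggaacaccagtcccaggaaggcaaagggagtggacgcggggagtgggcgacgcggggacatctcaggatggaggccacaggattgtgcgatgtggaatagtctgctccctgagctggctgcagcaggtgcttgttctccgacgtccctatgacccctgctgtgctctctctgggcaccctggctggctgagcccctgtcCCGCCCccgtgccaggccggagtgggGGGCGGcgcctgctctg
Ecrg4: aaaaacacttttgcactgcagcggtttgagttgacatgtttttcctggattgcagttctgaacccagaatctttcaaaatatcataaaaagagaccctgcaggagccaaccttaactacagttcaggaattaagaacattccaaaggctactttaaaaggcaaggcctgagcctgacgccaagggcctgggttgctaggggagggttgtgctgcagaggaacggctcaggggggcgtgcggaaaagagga
The Cldn2 window held 1 TATAAA, whose first base lay 35 bases before the start. The Kl window held 2 GC-box sequences, the nearer with its first base 17 bases before the start, and the Ecrg4 window held neither. RefSeq windows were at hand for 6 members, 10 windows in all, of which 3 held TATAAA, 4 held GGGCGG and 1, of Otx2, held TAATCC, the core sequence that OTX homeodomain proteins bind. Motifs were searched on both strands, each counted on its own, and of 32851 windows of the same length 12.4% held TATAAA, 32.7% GGGCGG and 6.25% TAATCC. A match describes the letters only, and a window without one says nothing about a factor.

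Ttr, the secreted carrier of thyroxine and of the retinol-binding protein, was the most variable member by far. Its probe set 1451580_PM_a_at read 11.27, 11.55, 11.85 and 7.38 in A/J risperidone replicates 1 to 4, against 11.90, 11.06, 8.24 and 6.99 in A/J controls. Its DBA/2J levels were 11.97, 7.10, 8.69 and 6.84 in risperidone mice, against 7.79, 6.0, 6.43 and 6.44 in controls. The levels fell into separate ranges: 6 arrays lay between 11.06 and 11.97 and 10 arrays between 6.0 and 8.69, with a gap of 2.37 and no array in it. The higher range held 3 of 4 A/J risperidone arrays, 2 of 4 A/J control arrays, 1 of 4 DBA/2J risperidone arrays and 0 of 4 DBA/2J control arrays.

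From the lowest array to the highest, Ttr differed 62.7-fold. Its SD around the group means was 2.00, second among 45037 probe sets, and the other Ttr probe set, 1455913_PM_x_at, came next with 1.93. That probe set read 11.22, 11.38, 11.58 and 7.57 in A/J risperidone mice, against 11.62, 11.27, 8.76 and 7.18 in A/J controls. It read 11.76, 7.20, 9.12 and 6.84 in DBA/2J risperidone mice, against 8.33, 5.54, 5.79 and 5.81 in DBA/2J controls. Both probe sets ordered the mice almost alike, with a correlation of 0.98 over the 16 group-centred values, so the spread is not a matter of a single probe set.

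**Figure D1:**
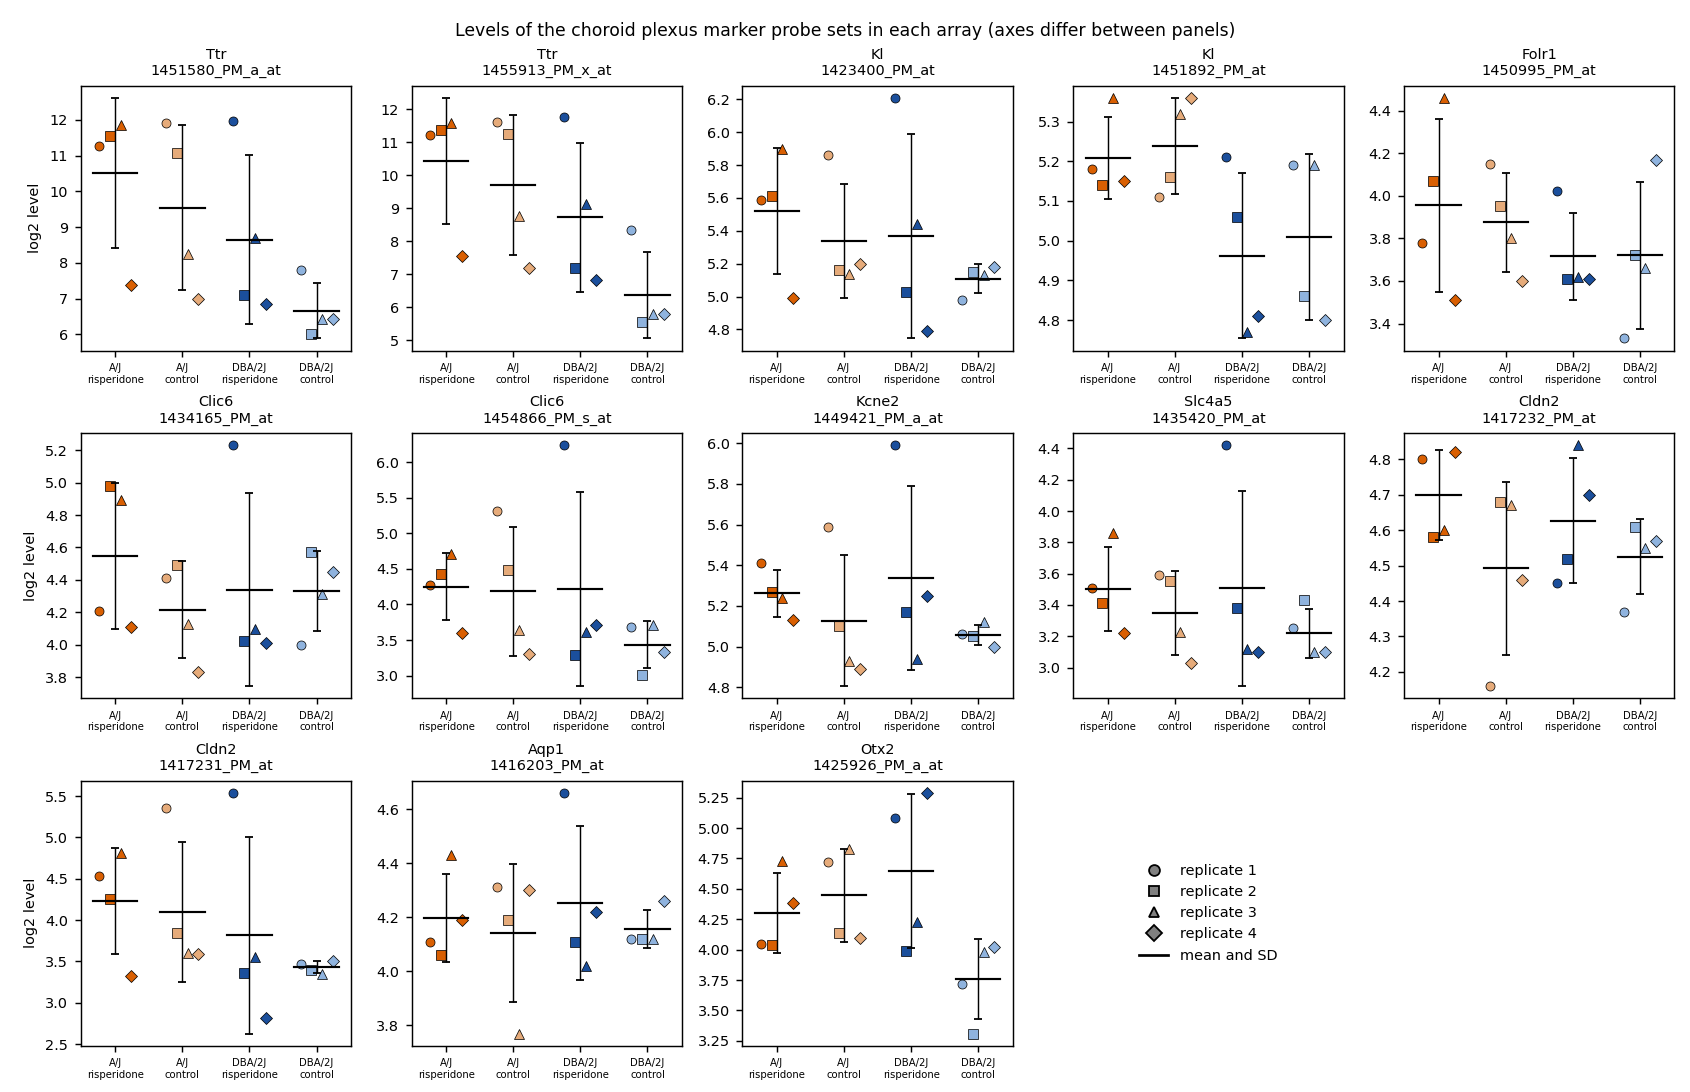
The log2 level of each of the 13 probe sets (y axis, which differs between panels) in the 16 arrays by group (x axis), with replicate numbers as marker shapes, the group mean as a line and the SD as a bar. Ttr spans 6.0 to 11.97 on 1451580_PM_a_at, and DBA/2J risperidone replicate 1 is the highest array on 9 of the 13 probe sets.

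The order of the group means of Ttr was A/J risperidone, A/J control, DBA/2J risperidone, DBA/2J control. They were 10.51 ± 2.10 and 9.55 ± 2.31 in A/J risperidone and control mice, and 8.65 ± 2.36 and 6.67 ± 0.78 in DBA/2J risperidone and control mice (SD, n = 4 each). No neighbours in that order were told apart: the ranges of neighbouring groups overlapped and each step was smaller than the SD of the higher group. In A/J the risperidone minus control difference was 0.97 ± 1.14 (SE) with an adjusted p of 0.992, by limma with Benjamini-Hochberg adjustment over all 45037 probe sets. With 1 array left out it ran from 0.11, without A/J control replicate 4, to 2.01, without A/J risperidone replicate 4. Without the 3 A/J risperidone arrays of intermediate strain share it was 2.30, now resting on 1 array (limma adjusted p = 0.999).

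In DBA/2J the difference in Ttr was 1.99 ± 1.14, or 3.96-fold, with a limma adjusted p of 0.535. The second probe set gave 2.36 ± 1.11 with an adjusted p of 0.462. By the exact two-sided permutation test of the 8 arrays p was 0.143 for both probe sets, where 0.0286 is the smallest that 4 against 4 arrays allow. A single mouse carried much of that difference, since without DBA/2J risperidone replicate 1 it was 0.88 (limma adjusted p = 0.812). The drug difference in DBA/2J minus that in A/J was 1.02 ± 1.62, with a limma adjusted p of 0.862.

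Of the 4 comparisons of 2 groups, that of strain in control mice had the widest Ttr difference. DBA/2J minus A/J was -2.88 ± 1.14 there (limma adjusted p = 0.190), and -3.34 ± 1.11 on the second probe set (limma adjusted p = 0.108), so neither passed. The groups overlapped by 1 array of DBA/2J, replicate 1 at 7.79, above A/J control replicate 4 at 6.99, and the exact permutation p was 0.0571 for both probe sets. In risperidone mice the strain difference was -1.86 ± 1.14 (limma adjusted p = 0.672), and -3.20 without those 3 A/J arrays (limma adjusted p = 0.859).

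Of the genes for ion and water transport, Clic6, a chloride intracellular channel family member, varied most. Its probe set 1454866_PM_s_at read 4.27, 4.43, 4.71 and 3.60 in A/J risperidone mice, against 5.32, 4.48, 3.64 and 3.30 in A/J controls. Among DBA/2J mice the levels were 6.24, 3.29, 3.62 and 3.71 in risperidone mice, against 3.68, 3.01, 3.71 and 3.33 in controls. The highest array, DBA/2J risperidone replicate 1, was also the highest for Ttr, and the groups overlapped in both strains. The other Clic6 probe set, 1434165_PM_at, spanned 3.83 to 5.23, with the same array on top.

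Kcne2, a potassium channel beta subunit, read 5.41, 5.27, 5.24 and 5.13 in A/J risperidone mice, against 5.59, 5.10, 4.93 and 4.89 in A/J controls. The DBA/2J levels of Kcne2 were 5.99, 5.17, 4.94 and 5.25 in risperidone mice, against 5.06, 5.05, 5.12 and 5.0 in controls. The DBA/2J controls differed little, with an SD of 0.05, and 1 of 4 risperidone arrays lay below all of them. Slc4a5, a sodium bicarbonate cotransporter, spanned 3.03 in A/J control replicate 4 to 4.42 in DBA/2J risperidone replicate 1. Aqp1, the water channel of the ventricular face of the epithelium, spanned 3.77 to 4.66, a 1.85-fold range at a low level without a stated detection limit.

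Cldn2, a claudin that forms cation-permeable tight junctions, gave different pictures on its probe sets. On 1417231_PM_at it read 4.53, 4.25, 4.81 and 3.33 in A/J risperidone mice, against 5.36, 3.84, 3.60 and 3.59 in A/J controls. In DBA/2J it read 5.54, 3.36, 3.55 and 2.82 in risperidone mice, against 3.47, 3.40, 3.35 and 3.51 in controls. The DBA/2J controls were close together (SD 0.07), with risperidone arrays on either side of them. On 1417232_PM_at the 16 arrays lay within 4.16 to 4.84, and the lowest, A/J control replicate 1, was among the highest on the first probe set.

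Kl, the membrane protein Klotho, a co-receptor for FGF23, read 5.59, 5.61, 5.90 and 4.99 on 1423400_PM_at in A/J risperidone mice, against 5.86, 5.16, 5.14 and 5.20 in A/J controls. Its DBA/2J levels were 6.21, 5.03, 5.44 and 4.79 in risperidone mice, against 4.98, 5.15, 5.13 and 5.18 in controls. The mice high in Ttr were mostly those high in Kl, with A/J control replicate 2 an exception. The second Kl probe set, 1451892_PM_at, was flat, from 4.77 to 5.36. Folr1, the folate receptor alpha that carries folate into the fluid, read 3.33 to 4.46, and its highest array was A/J risperidone replicate 3.

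Otx2, a homeobox transcription factor needed for choroid plexus development, ordered the mice differently from Ttr. It read 4.05, 4.04, 4.73 and 4.38 in A/J risperidone mice, against 4.72, 4.14, 4.83 and 4.10 in A/J controls. In DBA/2J, Otx2 read 5.08, 3.99, 4.23 and 5.29 in risperidone mice, against 3.72, 3.31, 3.98 and 4.02 in controls. The highest array, DBA/2J risperidone replicate 4, was among the lowest for Ttr at 6.84, and the 4 DBA/2J controls were low for both genes.

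Between the groups, no member was called in any of the 6 comparisons made with limma, where a call is an adjusted p under 0.05. In A/J, 11 of 13 probe sets were higher and 2 lower with risperidone, with a median difference of 0.14, against 0.00 over all probe sets. Without A/J risperidone replicate 3 that count was 7 higher and 6 lower with a median of 0.03, and with other single arrays left out the median ran up to 0.29. None had an unadjusted p under 0.05 there, and the share of all probe sets called was 0%, or 5.51% by unadjusted p. In DBA/2J, 11 were again higher and 2 lower, with a median of 0.28 against -0.005 over all probe sets. Both values rested on 1 array: without DBA/2J risperidone replicate 1, 6 were higher and 7 lower, with a median of -0.02. There 2 members had an unadjusted p under 0.05, Otx2 and the second Ttr probe set, where 0.04% of all probe sets were called and 10.7% had an unadjusted p that low. The probe sets are not independent of each other, since most of them correlated with Ttr within groups.

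Otx2 had the smallest p of the members in DBA/2J. Risperidone mice averaged 4.65 ± 0.63 and controls 3.76 ± 0.33 (SD, n = 4 each). Otx2 differed by 0.89 ± 0.26, with a limma adjusted p of 0.246 and an exact permutation p of 0.0571. It was also the only member with an unadjusted p under 0.05 for the interaction, at 1.04 ± 0.36 (limma adjusted p = 0.435), where 0% of all probe sets were called and 9.19% reached that unadjusted p. In A/J its difference was -0.15 ± 0.26 (adjusted p = 0.997), and its sign turned, to 0.28, without the 3 A/J risperidone arrays of intermediate strain share.

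Averaged over both strains, 12 of 13 probe sets were higher with risperidone, with a median of 0.22 against 0.00 over all probe sets. Without DBA/2J risperidone replicate 1, 10 were higher and the median was 0.08. No member was called, where 0.0266% of all probe sets were, and no member had an unadjusted p under 0.05, where 6.9% did. The Ttr difference was 1.48 ± 0.81, with a limma adjusted p of 0.768, and 0.92 without that array.

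**Figure D2:**
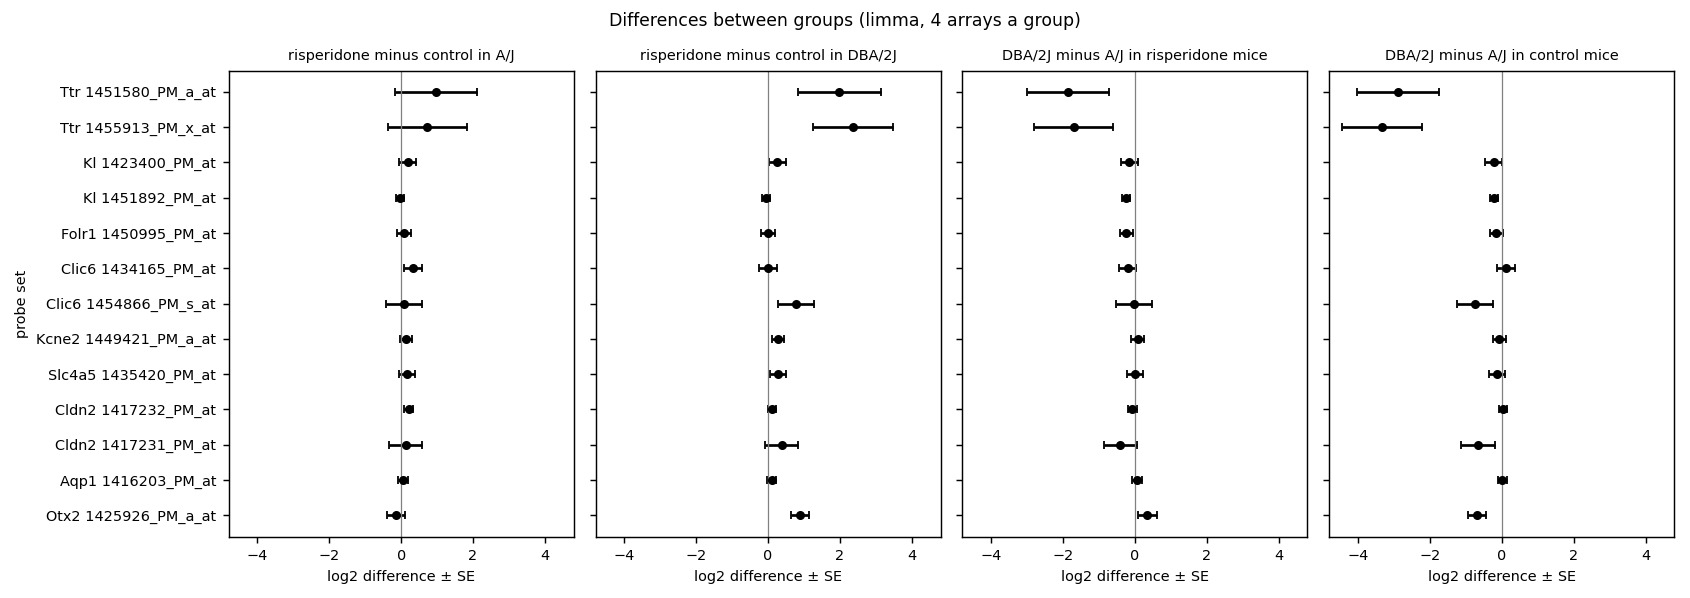
The log2 difference (x axis, with the SE from limma as bars) of each probe set (y axis) in 4 comparisons of 4 against 4 arrays. The Ttr probe sets have the largest differences and the widest errors, up to -3.34 ± 1.11 for DBA/2J minus A/J in control mice, and 0 of the 13 probe sets passed in any of the comparisons.

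For strain, 10 of 13 probe sets were lower among DBA/2J controls than among A/J controls, with a median of -0.23 against 0.01 over all probe sets, and of -0.08 without A/J control replicate 1. No member was called, where 3.87% of all probe sets were. Of the 13 probe sets 3 had an unadjusted p under 0.05, both of Ttr and that of Otx2, where 17.7% of all probe sets did. Otx2 averaged 3.76 ± 0.33 in DBA/2J and 4.45 ± 0.38 in A/J controls, a difference of -0.69 ± 0.26 (limma adjusted p = 0.159). The groups did not overlap for Otx2 and for Cldn2 1417231_PM_at, both lower in DBA/2J, where 4.42% of all probe sets were lower without overlap and 9.33% did not overlap in either direction. In the other 3 comparisons of 2 groups no member was free of overlap, where 4.42% (risperidone minus control in A/J), 4.4% (the same in DBA/2J) and 7.68% (strain in risperidone mice) of all probe sets were. Otx2 and Cldn2 1417231_PM_at had an exact permutation p of 0.0286 in control mice, the smallest possible with 4 against 4 arrays. Any groups without overlap have that p, so it adds nothing to the lack of overlap. Cldn2 1417231_PM_at differed there by -0.67 ± 0.46 (limma adjusted p = 0.478), and by -0.24 without A/J control replicate 1, its highest array in that group. In risperidone mice 9 of 13 were lower in DBA/2J, with a median of -0.16 against 0.005 over all probe sets. Without DBA/2J risperidone replicate 1, 12 were lower, with a median of -0.34, and with other single arrays left out the median lay between -0.26 and -0.04. No member was called there, where 0.782% were, and Kl 1451892_PM_at alone had an unadjusted p under 0.05 (-0.25 ± 0.11, limma adjusted p = 0.512), where 9.43% did.

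Within groups, the levels of most members ran in the same direction as Ttr from mouse to mouse, and 2 probe sets passed the test. The slope of each probe set on the Ttr level was fitted with limma in a model that holds the 4 group means. Adjustment of p was over the 45035 probe sets other than the 2 that the platform table names for Ttr. Of these, 8 were called, or 0.0178%, and all 8 rose with Ttr (0% fell). Among the 8 other members, 2 genes were called. Clic6 1454866_PM_s_at rose by 0.39 ± 0.05 (SE) log2 units for each log2 unit of Ttr, with a limma adjusted p of 0.00359. Cldn2 1417231_PM_at rose by 0.35 ± 0.05, with a limma adjusted p of 0.0100. Without DBA/2J risperidone replicate 1 neither was called, Clic6 at 0.29 with an adjusted p of 0.0505 and Cldn2 at 0.27 with an adjusted p of 0.298. Cldn2 also lost its call without A/J control replicate 1 (adjusted p = 0.0743) and without A/J risperidone replicate 4 (adjusted p = 0.0603). Its adjusted p was 0.0833 with the DBA/2J share of an array as a covariate and 0.136 without the 3 A/J risperidone arrays of intermediate share, settings under which Clic6 was still called. Without those 3 arrays, DBA/2J risperidone replicate 1 and DBA/2J control replicate 4 neither was called (adjusted p = 0.453 for Clic6 and 0.646 for Cldn2).

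The other transport genes and Kl had positive slopes that did not pass. The limma slope was 0.17 ± 0.03 for Kl 1423400_PM_at (adjusted p = 0.146), 0.15 ± 0.03 for Slc4a5 (adjusted p = 0.398) and 0.16 ± 0.04 for Clic6 1434165_PM_at (adjusted p = 0.505). It was 0.10 ± 0.03 for Kcne2 (adjusted p = 0.651) and 0.09 ± 0.03 for Folr1 (adjusted p = 0.801). With at least 1 probe set, 6 of the 8 genes rose with an unadjusted p under 0.05. Aqp1, at 0.05 ± 0.03, and Otx2, at 0.04 ± 0.05, were not among them. Of all probe sets 2.89% rose and 2.91% fell at that level. A share per gene was not computed, so the count of 6 genes has no direct background. Kl 1423400_PM_at passed when A/J control replicate 2, which had high Ttr and low Kl, was left out (adjusted p = 0.0100).

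**Figure D3:**
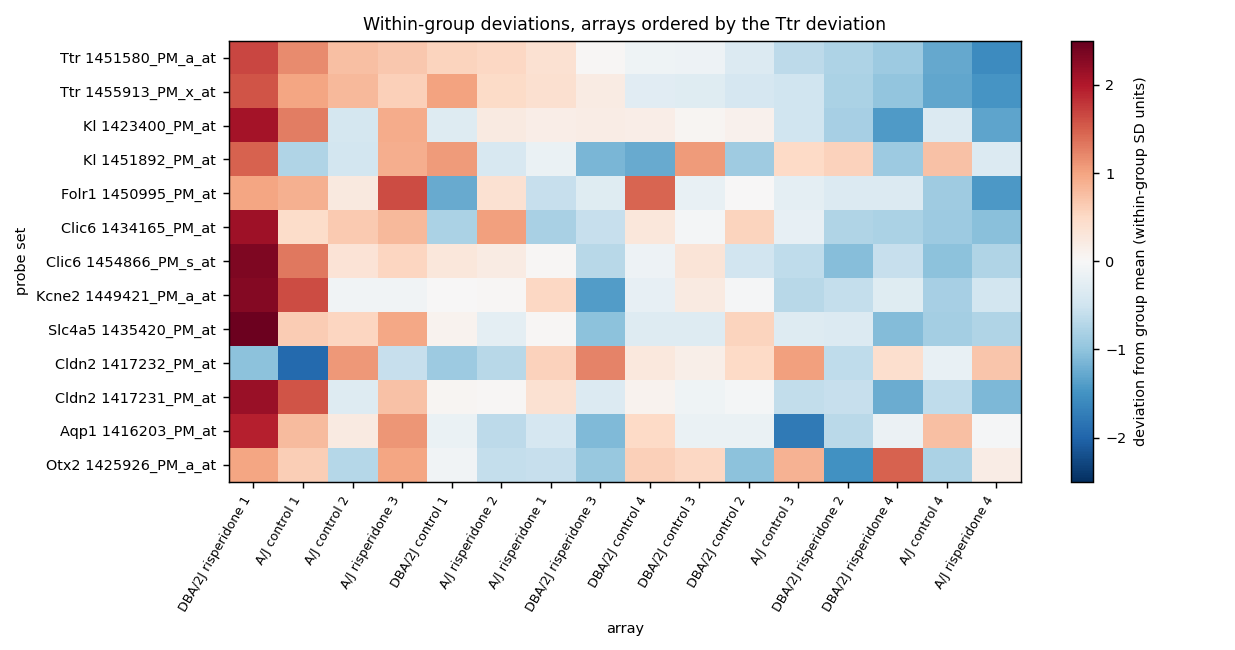
The deviation of each probe set (rows) from its group mean in units of its within-group SD (colour, red above and blue below), in the 16 arrays (columns) ordered by the deviation of Ttr 1451580_PM_a_at. DBA/2J risperidone replicate 1 and A/J control replicate 1, at the left, are high for most members, while Cldn2 1417232_PM_at runs the other way (r = -0.49 with Ttr).

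The correlations of group-centred levels with Ttr 1451580_PM_a_at, of 12 probe sets over 16 arrays, were taken with p from 100000 permutations within groups. Clic6 1454866_PM_s_at had r = 0.89 (permutation p = 0.000360) and Spearman's rho = 0.89 (permutation p = 0.00145). Without the 2 arrays farthest from the Ttr median (replicate 4 of A/J risperidone, replicate 1 of DBA/2J risperidone), its r was 0.88. Cldn2 1417231_PM_at had r = 0.87 (permutation p = 0.000160) and rho = 0.85 (permutation p = 0.000110), with 0.73 without those arrays. Among 17096 genes, each at its probe set of highest mean, 1 had a higher r with Ttr than Clic6 1454866_PM_s_at. For Cldn2 1417231_PM_at, 2 genes did. These are not the highest-mean probe sets of the 2 members. At those, 42 genes had a higher r than Clic6 1434165_PM_at and 16142 a higher r than Cldn2 1417232_PM_at.

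Kl 1423400_PM_at had r = 0.83 (permutation p = 0.00419) and rho = 0.76 (permutation p = 0.00536), with 0.58 without those arrays. Slc4a5 had r = 0.78 (permutation p = 0.00430) and rho = 0.81 (permutation p = 0.00246), with 0.60 without them. For Clic6 1434165_PM_at, Kcne2 and Folr1 r was 0.74, 0.73 and 0.60, and 0.42, 0.56 and 0.32 without those arrays, so the relation of Folr1 and of the weaker Clic6 probe set rested largely on them. Otx2 had r = 0.18 (permutation p = 0.623) and rho = 0.23 (permutation p = 0.486), and 4912 of 17096 genes had a higher r. The discordant probe sets were Kl 1451892_PM_at, with r = 0.17 (permutation p = 0.565), and Cldn2 1417232_PM_at, with r = -0.49 (permutation p = 0.135).

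**Figure D4:**
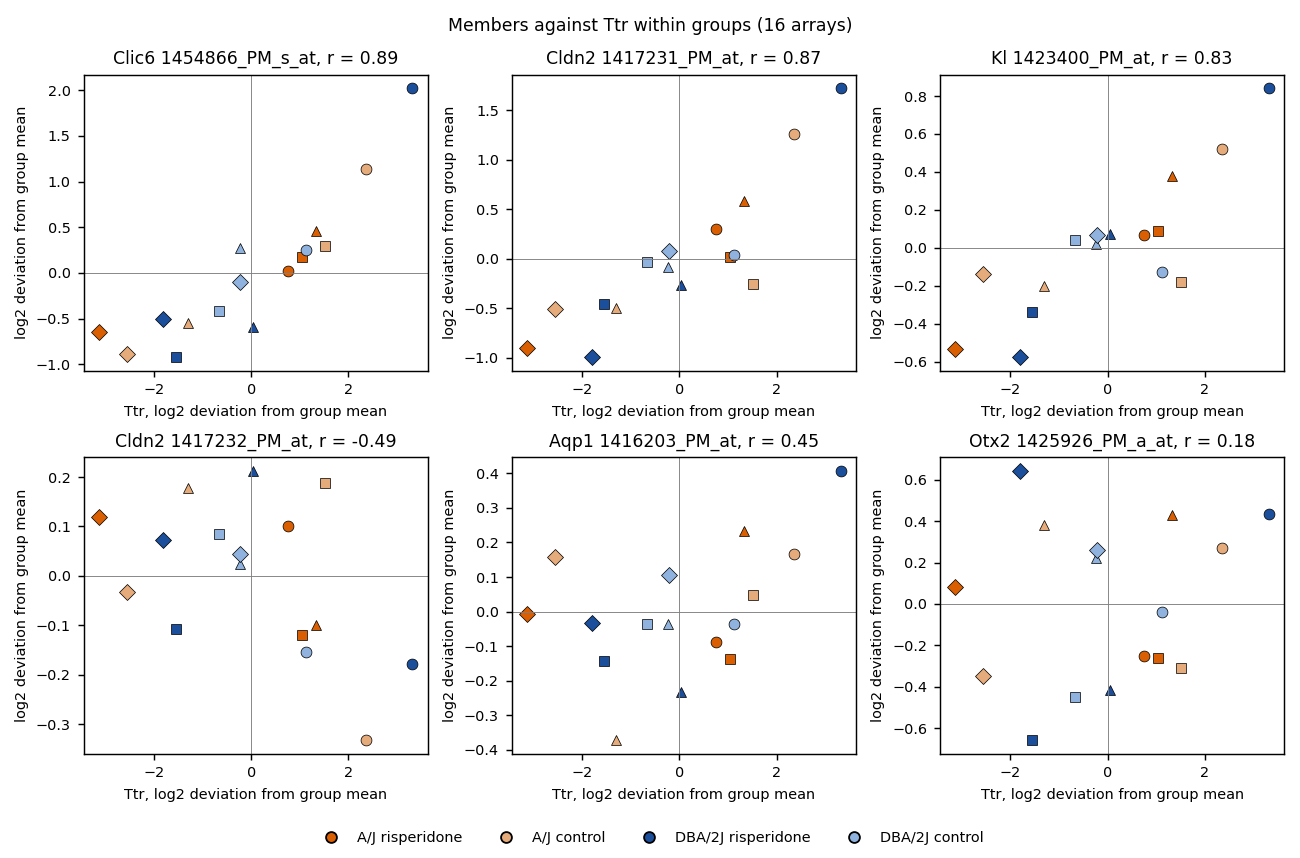
The log2 deviation from the group mean of 6 probe sets (y axes) against that of Ttr 1451580_PM_a_at (x axes), 1 point per array, coloured by group and shaped by replicate number. Clic6 1454866_PM_s_at (r = 0.89), Cldn2 1417231_PM_at (0.87) and Kl 1423400_PM_at (0.83) follow Ttr, with DBA/2J risperidone replicate 1 at the upper right, and Otx2 has r = 0.18.

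Since the Ttr levels formed separate ranges, r was also taken on the levels within each range, a step added after the ranges had been seen. These values are given as a description, without p, because the ranges were set from Ttr itself and each pools arrays of several groups. In the 6 arrays of the higher range, Kl 1423400_PM_at had r = 0.93 with Ttr (rho = 0.94), Cldn2 1417231_PM_at 0.89 (rho = 0.94), Otx2 0.86 (rho = 0.71) and Clic6 1454866_PM_s_at 0.74 (rho = 0.83). Cldn2 1417232_PM_at had r = -0.72 there (rho = -0.83), and the remaining probe sets of members other than Ttr lay between 0.29 and 0.72. In the 10 arrays of the lower range, r of the members other than Ttr ran from -0.60 for Aqp1 to 0.54 for Clic6 1454866_PM_s_at, and was 0.35 for Otx2. It was also negative for Clic6 1434165_PM_at (-0.53), Kcne2 (-0.38), Folr1 (-0.34) and Slc4a5 (-0.12). For the probe sets of Kl and Cldn2 it was between 0.17 and 0.34.

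Members were also correlated with each other. Kl 1423400_PM_at and Cldn2 1417231_PM_at had r = 0.96 over the 16 group-centred values, the highest r between probe sets of different members. Their rho was 0.87, and r was 0.92 without the 2 arrays farthest from the Kl median. The 13 pairs over which p is adjusted below include this pair but not the other pairs of members, so no p is given for it. Clic6 1454866_PM_s_at had r = 0.91 with Kcne2 and 0.90 with Cldn2 1417231_PM_at. The highest r of Otx2 with any other member was 0.45, with Clic6 1454866_PM_s_at.

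Of the 8 probe sets called for the Ttr slope, 2 were the member probe sets above, 3 were of Ecrg4, an augurin precursor, and 1 was of Sostdc1, a secreted antagonist of BMP and WNT signalling. The other 2, 1454608_PM_x_at and 1459737_PM_s_at, have no single gene symbol in the platform table, so they were not left out with Ttr. They had slopes of 0.95 ± 0.04 (limma adjusted p = 9.15e-10) and 1.09 ± 0.06 (limma adjusted p = 1.49e-08). Their r of 0.99 and 0.98 was like that of the second Ttr probe set (0.98). Whether they measure Ttr was not tested. Ecrg4 1423261_PM_at read 5.93, 6.31, 6.92 and 5.11 in A/J risperidone mice, against 6.98, 6.33, 5.42 and 5.52 in A/J controls. Among DBA/2J mice it read 7.43, 5.57, 5.40 and 5.48 in risperidone mice, against 5.59, 5.36, 5.57 and 5.75 in controls. The 6 arrays of the higher Ttr range had Ecrg4 levels of 5.93 to 7.43, and the 10 arrays of the lower range had 5.11 to 5.75, without overlap. This is a description only, because the ranges were set from Ttr and Ecrg4 was shown for its high r with Ttr. The share of all probe sets that separate these arrays was not counted.

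By r over the 16 group-centred values, with each gene taken at its probe set of highest mean, the genes most like Ttr outside the members were Ecrg4 (0.90), Lims1 (0.88), Rnps1 (0.86), Tmem72 (0.84) and Marveld1 (0.83). Adam10 (0.83), Moxd1 (0.83), Dmrt3 (0.83), Igf2 (0.82) and Lca5 (0.81) followed. Of these only Ecrg4 was called by the limma slope, and the slopes of the other 9 were between 0.04 and 0.15, so a high r did not go with a wide range. At the other end were Padi1 (-0.94), Tnfrsf13c (-0.84), Hspa4l (-0.83), Pim3 (-0.82) and Zbtb7a (-0.82), with Padi1 within 3.77 to 4.42 in all arrays.

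For Kl 1423400_PM_at the 3 genes most alike were 2810408A11Rik (0.90), Tmem72 (0.89) and Ecrg4 (0.87), and for Cldn2 1417231_PM_at Ecrg4 (0.92), 2810408A11Rik (0.91) and L3hypdh (0.88). For Clic6 1454866_PM_s_at they were Ecrg4 (0.93), Tyw5 (0.90) and Trpm3 (0.90), and for Kcne2 Tyw5 (0.92), Hdac2 (0.89) and Calml4 (0.88). For Slc4a5 they were Lmod1 (0.89), Tfb1m (0.88) and Ecrg4 (0.87). Ecrg4 was thus among the 3 most alike for 4 members besides Ttr, but not on every probe set. It was not among them for Kl 1451892_PM_at, Clic6 1434165_PM_at and Cldn2 1417232_PM_at. For the second Ttr probe set, 1455913_PM_x_at, the 3 most alike were Lims1 (0.91), Rnps1 (0.89) and Moxd1 (0.89). The genes most like Otx2 were others, namely Rhpn2 (0.91), Zfp423 (0.87) and Sh3bgrl (0.86). For Folr1 they were Speer6-ps1 (0.92), Crot (0.91) and Krt19 (0.88), and for Aqp1 Sp8 (0.84), Trip6 (0.83) and Dll1 (0.83).

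A list of 30 further choroid plexus genes, of which 27 were measured, held 2 that were called for the slope, Ecrg4 and Sostdc1. By unadjusted p under 0.05, 12 rose with Ttr and 1 fell, and the median r was 0.42, against 0.00269 over all genes. In this and the following lists a gene was counted if any of its probe sets had such a p, while r is that of its probe set of highest mean. Of all probe sets 2.89% rose and 2.91% fell at that level. A like share per gene was not computed, so these counts have no direct background. The calmodulin-like gene Calml4 had r = 0.80 (limma adjusted p = 0.196), the coagulation factor gene F5 had r = 0.80 (adjusted p = 0.422), and the carbonic anhydrase gene Car12 had r = 0.78 (adjusted p = 0.422). Kcnj13, an inwardly rectifying potassium channel, had r = 0.74 (adjusted p = 0.505). The mean level of this list correlated with Ttr with r = 0.80 (permutation p = 0.00272, adjusted p = 0.0177 over 13 pairs) and rho = 0.85 (permutation p = 0.00247, adjusted p = 0.0161), and r was 0.60 without the 2 arrays farthest from the Ttr median.

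No marker of neighbouring tissue passed for the Ttr slope. Of 18 genes of the leptomeninges and fibroblasts, 0 were called by limma, while 9 rose and 0 fell by unadjusted p, and the median r was 0.37. Igf2, the growth factor that meninges and choroid plexus secrete, had r = 0.82 (adjusted p = 0.181), and Ogn, osteoglycin of connective tissue, r = 0.76 (adjusted p = 0.505). Slc13a4, a sulfate transporter, had r = 0.73 (adjusted p = 0.618), and Foxc1, a transcription factor of the meninges, r = 0.62 (adjusted p = 0.801). Their mean level had r = 0.60 with Ttr (adjusted p = 0.0578 over 13 pairs), but 0.06 without the 2 arrays farthest from the Ttr median, so that relation rested on those arrays. It lay between 6.01 and 6.46 in A/J risperidone mice, against 6.04 to 6.27 in A/J controls, and between 5.93 and 6.49 in DBA/2J risperidone mice, against 6.03 to 6.48 in DBA/2J controls. The part of these genes in the Ttr differences was not tested.

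Ependymal cells line the ventricle wall beside the striatum. Of 13 of their genes, 0 were called and 1, Mia, rose with Ttr by unadjusted p, with a median r of 0.10. The ciliary regulator Foxj1 had r = 0.36 and lay between 3.27 and 4.02 in all arrays. Of 13 genes of the thalamus and habenula, 0 were called, 0 rose and 2 fell by unadjusted p, with a median r of -0.22, and 0 of the 13 had an r above 0. Tcf7l2, the defining thalamic marker, had r = -0.40. It read 6.69, 6.89, 7.89 and 7.44 in A/J risperidone mice, against 7.23, 5.83, 8.98 and 6.93 in A/J controls. In DBA/2J, Tcf7l2 read 5.98, 6.34, 6.33 and 7.77 in risperidone mice, against 6.14, 5.92, 5.81 and 6.38 in controls. The array highest in Tcf7l2, A/J control replicate 3, had a Ttr level in the lower range, 8.24, while the second highest, A/J risperidone replicate 3, had a Ttr level of 11.85.

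In the remaining lists 0 genes were called. By unadjusted p, 3 of 9 striatal projection neuron genes rose with Ttr and 0 fell, with a median r of 0.04. Of blood genes 2 of 4 rose and 1 fell, with a median r of 0.40, and of oligodendrocyte genes 0 of 7 rose and 1 fell, with a median r of -0.28. Of astrocyte genes 0 of 6 rose and 1 fell (median r 0.07), of endothelial genes 0 of 7 moved either way (median r 0.28), and of cortical excitatory neuron genes 0 of 5 did (median r 0.24). Endothelial Cldn5, another claudin, lay between 6.24 and 7.10 in all arrays.

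Otx2 was also set against the mean levels of these lists. Its r with the mean of the ependyma list was 0.73 (permutation p = 0.0237, adjusted p = 0.0514 over 13 pairs) and rho was 0.73 (permutation p = 0.0216, adjusted p = 0.0701), with r = 0.67 without the 2 farthest arrays. With the striatal projection neuron list r was 0.70 (permutation p = 0.0110, adjusted p = 0.0422) and rho 0.72 (permutation p = 0.0165, adjusted p = 0.0701), with r = 0.73 without the 2 farthest arrays. With the thalamus and habenula list r was 0.55 (permutation p = 0.0130, adjusted p = 0.0422) but rho was 0.36 (permutation p = 0.230, adjusted p = 0.332). With the further choroid plexus list r was 0.51 (permutation p = 0.102, adjusted p = 0.166). Set against the single gene Tcf7l2, Otx2 had r = 0.60 (permutation p = 0.0173, adjusted p = 0.0451), but 0.38 without the 2 farthest arrays. Its rho there was 0.50 (permutation p = 0.0789, adjusted p = 0.147). Of the lists, only the r with the striatal neuron list and that with the thalamus and habenula list came under 0.05 after adjustment, and no rho of Otx2 did. These 2 and the r with Tcf7l2 came under 0.05 only because the 13 pairs include that of Kl with Cldn2. That pair had the smallest p by r, and without it none of them would pass. Ttr had r = 0.33 with the ependyma list, 0.42 with the striatal neuron list and -0.36 with the thalamus and habenula list, and Clic6 1454866_PM_s_at had 0.64, 0.56 and -0.27. Whether Otx2 and Ttr differ in these correlations was not tested.

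The thalamus and habenula list mean in DBA/2J was 5.89, 5.94, 5.96 and 6.33 in risperidone mice, against 5.86, 5.89, 5.86 and 5.95 in controls. DBA/2J risperidone replicate 4, which had the highest Otx2 level of all, also had the highest Tcf7l2 level in DBA/2J, 7.77, while DBA/2J risperidone replicate 1, the next highest in Otx2, had a Tcf7l2 level of 5.98 and the highest Ttr level. In A/J the list mean was 6.15, 6.13, 6.55 and 6.27 in risperidone mice, against 6.27, 5.88, 7.08 and 6.30 in controls, and the highest array was the one with the highest Otx2 level in A/J. Otx2 is known in the adult brain from the choroid plexus and from some thalamic and midbrain neurons. The part of these lists in the Otx2 differences was not tested.

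**Figure D5:**
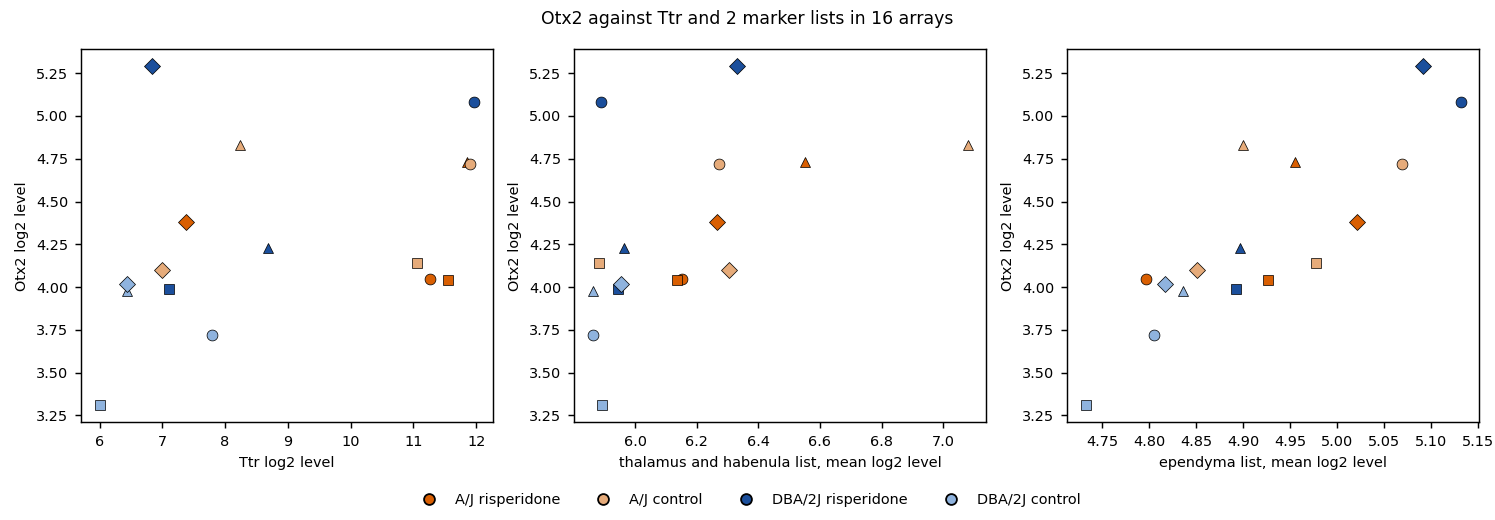
The Otx2 log2 level (y axis) against the Ttr log2 level, the mean log2 level of 13 thalamus and habenula genes and that of 13 ependyma genes (x axes), 1 point per array, coloured by group and shaped by replicate number. The 2 arrays highest in Otx2, DBA/2J risperidone replicates 4 and 1, stand at opposite ends of the Ttr axis (6.84 and 11.97) and both at the upper end of the ependyma axis.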

How the data were processed

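Total RNA from striatum was hybridised to 16 Affymetrix arrays. The authors deposited log2 expression levels per probe set, made with RMA per the submitters' processing notes; its version and other upstream steps are not given in the sources used here. The table holds 45141 probe sets. Without its 104 array controls, 45037 were tested on the deposited scale, unfiltered; 28898 name 1 gene, 551 several and 15588 none in the platform table. The last 2 kinds were tested and stay unnamed.

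Group means of all 16 arrays were estimated in 1 linear model (limma 3.58.1 under R 4.3.3, moderated by eBayes), and tests were two-sided, with Benjamini-Hochberg adjustment over all probe sets of a comparison and calls at an adjusted p under 0.05. The slope on Ttr used the probe set with the higher mean. Correlations used group-centred values with 100000 permutations within groups, and single differences an exact permutation test (scipy 1.17.1). SE is limma's, SD that of the 4 arrays of a group. Scripts were tested on simulated data. Figures were drawn with matplotlib 3.10.9.

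Strain markers differed between control groups by 1.5 log2 units or more at an adjusted p under 0.01, with a mean level of 7 or more in one group, which gave 46 to 49 markers. Control arrays were scored with markers chosen without them. Gene lists (10 lists, 122 genes, 109 measured by a probe set of their own) covered further choroid plexus genes, ependyma, leptomeninges and fibroblasts, endothelium, blood, thalamus and habenula, striatal projection neurons, oligodendrocytes, astrocytes and cortical excitatory neurons. Enpp2 and Hbb-b1, also meant to be named, had no such probe set. Named genes are all members, the 10 genes most and 5 least like Ttr, the 3 most like each other member, and up to 4 genes of a list with the smallest p for the Ttr slope, plus fixed defining markers. Padi1, Ecrg4 and Sostdc1 levels were shown for that likeness or call. The members and lists were chosen with earlier results of these data known. Alternatives were median centring, quantile normalization once more, probe sets at or above the median level only, averaging the probe sets of a gene, eBayes trend and robust options, array weights, the replicate number as a block, the DBA/2J share as a covariate, fewer arrays, the mean of both Ttr probe sets and unlogged values. Counts and medians of the members with each array left out, and correlations within the ranges of Ttr, were added after seeing the data.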

Additional observations from a re-analysis of the deposited data

Results flagged for a closer look

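In 9 of the 52 sets of 4 arrays (13 probe sets in 4 groups), 1 array lay far from its group, its gap to the nearest other array as a ratio of the group's range, being above Dixon's 95% critical value. Chance alone gives about 1 in 20, and the probe sets are not independent. In A/J risperidone mice, replicate 4 was low for Ttr, with a ratio of 0.870 on 1451580_PM_a_at (7.38, the other three arrays between 11.27 and 11.85) and 0.910 on 1455913_PM_x_at. It was 1 of the 3 A/J arrays of intermediate strain share, at 39.1%, but the other two of these, at 27.9% and 36.2%, had high Ttr. In A/J controls, replicate 1 was high for Kl 1423400_PM_at (ratio 0.917) and for Cldn2 1417231_PM_at (ratio 0.859), and it also had the highest Ttr level of that group, 11.90.

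In DBA/2J risperidone mice, replicate 1 was high for Folr1 (ratio 0.976), Clic6 1434165_PM_at (ratio 0.926) and Clic6 1454866_PM_s_at (ratio 0.858), and had the highest Ttr level of all arrays, 11.97. In DBA/2J controls, replicate 1 was high for Ttr 1455913_PM_x_at (ratio 0.903), at 8.33, and replicate 4 was high for Aqp1 (ratio 1), at 4.26 where the other three arrays all read 4.12. For no member did every array of one strain move one way with risperidone and every array of the other strain the opposite way.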

How the results depend on the processing

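Each of 41 values was recomputed under other settings, and 351 of 380 such values were counted as unchanged. With 1 array left out, 640 of 656 were. A difference or slope was unchanged if it kept its direction and its side of the threshold. For a number of members called, a small change such as from 2 to 3 was also counted as unchanged. The number of members called was 0 in all 6 comparisons under every setting but one, and 0 to 0 with any 1 array left out: with the replicate number as a block, 1 was called for DBA/2J minus A/J in control mice, Ttr 1455913_PM_x_at at -3.34 (adjusted p = 0.0126). For the slope on Ttr, 2 members were called in the report, 0 with the replicate block (Clic6 1454866_PM_s_at 0.43, adjusted p = 0.252, Cldn2 1417231_PM_at 0.32, adjusted p = 0.420), 0 among probe sets at or above the median level (where no member but Ttr was left), 1 with a gene's probe sets averaged, 1 with the DBA/2J share as a covariate (Cldn2 0.33, adjusted p = 0.0833), 1 without the 3 A/J risperidone arrays (Cldn2 0.37, adjusted p = 0.136), 0 without 5 arrays in doubt (Clic6 0.34 and Cldn2 0.26, adjusted p = 0.453 and 0.646), and 0 to 3 with 1 array left out.

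Directions turned for values that had not passed. The Ttr interaction was -1.59 and -0.51 (second probe set) with the share as a covariate, -0.32 without 3 arrays, and -1.50 and -0.71 without 5. The Otx2 difference in A/J was 0.36 with the share and 0.28 without 3 or 5 arrays, and that of strain in risperidone mice -0.083 and -0.23. Without 5 arrays the DBA/2J differences were 0 for Kl 1423400_PM_at, -0.06 for Slc4a5 and -0.16 for Cldn2 1417231_PM_at. The Kl 1451892_PM_at slope was -0.019 with the replicate block and -0.038 without 5 arrays. With 1 array left out, the second Ttr probe set in A/J ran from -0.11 to 1.69, the Ttr interaction from -0.087 to 1.87, the DBA/2J differences of Kl 1423400_PM_at from -0.023 to 0.45, of Slc4a5 from -0.02 to 0.42 and of Cldn2 1417231_PM_at from -0.19 to 0.72, and the slopes of Kl 1451892_PM_at from -0.012 to 0.029 and of Otx2 from -0.0020 to 0.078. The cause was not tested. The share covariate was not run for the strain comparisons, because it nearly equals strain, and leaving out the 3 arrays leaves 1 A/J risperidone array, taken to vary like the other groups. Background signal was not analysed here, so values of probe sets near the lowest levels have no stated detection limit. Replicate numbers were not used as pairs, because in each of the 6 pairs of groups at most 2 of 4 same-numbered arrays had a correlation of deviations over 0.1.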
